A study of Homo sapiens with 18 samples.

Results

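A reductant and an oxidant were compared in the control line of ARPE-19, a human retinal pigment epithelium (RPE) cell line that arose spontaneously in culture. The reductant was N-acetylcysteine ethyl ester (NACET), an ester of N-acetylcysteine that enters cells and raises their cysteine, and the oxidant was hydrogen peroxide (H2O2). The 6 libraries used, 3 with NACET and 3 with H2O2, were chosen by their labels out of 18. Every log2 fold change given without another pair of groups is NACET against H2O2, so that a positive value means a higher level with NACET. The rest of the study held untreated samples of the same line and 9 samples of an NRF2-edited line, 3 untreated and 3 with each agent.

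The control cells had been transduced with lentiviral particles that carry Cas9 but no guide RNA, so all 6 libraries share that vector. The dose of NACET was 1 mM and that of H2O2 was 0.2 mM, so the values set the agents side by side at these doses only. The sources disagree on the schedule. The text of the series and the paper give 8 h of treatment after 40 h of culture in 10% serum, and the labels of the samples give 2 h after 22 h with 1% serum. The edited line was 1 clone with a CRISPR/Cas9 edit in exon 5 of NFE2L2, the gene of NRF2, which left stop codons at positions 503 and 505 of its alleles. Replicates are numbered 1 to 3 in each group, and nothing in the labels says whether they came from separate cultures, so the p-values measure the spread between these samples.

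The 6 libraries held 16673306 to 24083863 reads on genes (median 19589866.5). RPE markers were present in part. CPM are the counts of a gene scaled to a common library size. MITF (114 to 146 CPM), OTX2 (105 to 141 CPM), KRT8, KRT18 and EZR were detected in each of the 6 libraries. Of 18 RPE markers 11 reached 1 CPM in each of the 6 libraries. Genes that serve the visual cycle, pigment and transport of mature RPE were mixed. RPE65, RLBP1, TYR, DCT and TTR reached at most 0.392 CPM. The lowest values of LRAT and RDH5, of the visual cycle, were 3.54 and 6.32 CPM. Those of TYRP1 and PMEL, of pigment, were 2.402 and 1.52 CPM. Of the markers of other cells, 0 of 4 endothelial and 0 of 5 photoreceptor genes reached 1 CPM, and 1 of 5 leukocyte genes did, CD68 (78.5 to 142 CPM), while PTPRC and CD3E had no read. SYT1 was the 1 of 3 neuronal genes that did (16.1 to 31.5 CPM). So did 4 of 7 mesenchymal genes, VIM (4185 to 6489 CPM), PDGFRB (183 to 253 CPM), COL1A1 and ACTA2, while COL1A2 had no read. EPCAM and CDH1, markers of other epithelia, stood at 0.741 and 2.70 CPM in NACET replicate 2 and at most at 0.0589 and 0.348 CPM in the other 5 libraries. The summed RPE markers ranged from 1507 to 1558 CPM with H2O2 and from 1623 to 1907 CPM with NACET. Most of that sum came from KRT8 (428 to 565 CPM), KRT18 (282 to 450 CPM) and EZR (364 to 444 CPM). The values of MITF and of OTX2 overlapped between the agents. The part of these marker levels in the results was not tested. In bulk samples fewer cells of a type and less RNA per cell cannot be told apart.

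Cells meet H2O2 and its damage with several transcription programmes. The tumour suppressor p53 responds to DNA damage and switches on genes that stop the cell cycle, repair DNA or promote death. ATF4 responds to shortage of amino acids and to other stress and raises amino acid synthesis, uptake and tRNA charging, while the hypoxia-inducible factors, whose degradation depends on iron-containing prolyl hydroxylases, raise glycolysis and genes of low oxygen. NRF2, which is held down by KEAP1 until reactive cysteines of KEAP1 are modified, raises glutathione synthesis and detoxifying enzymes.

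The agents differed in most of these programmes. With H2O2 the targets of p53, the ATF4 genes of amino acid supply and the aminoacyl-tRNA synthetases stood higher. With NACET the hypoxia-inducible genes, glycolysis, DNA replication and a small group of cytokine and NF-kappaB genes stood higher. None of 8 classical NRF2 targets, those also assayed by RT-qPCR, was a differentially expressed gene (DEG) between the agents. When the samples were paired by replicate number, however, most of the 8 missed only the fold limit.

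Of 13581 genes tested, 499 were DEGs (3.67%) by edgeR's quasi-likelihood test, with a Benjamini-Hochberg adjusted p under 0.05 and a log2 fold change at or beyond 0.6 in either direction. With NACET 305 (2.25%) were higher and 194 (1.43%) were lower. The median log2 fold change was 0.91 among the former and -0.98 among the latter, and 121 and 91 of them differed by at least 1. Over all genes tested the median was 0.0067 (SD 0.37), and an unadjusted p under 0.05 was found for 3177. The 3 values with NACET did not overlap the 3 with H2O2 in any of the 499, nor in 3956 of all genes tested (29.1%). The replicate numbers pair the samples. With the number as a block 1019 genes were called (7.5%), 660 higher (4.86%) and 359 lower (2.64%), among them 498 of the 499. Fits that leave out a library used no block. In them the count fell from 499 to 164 without NACET replicate 2, to 174 without H2O2 replicate 2, to 247 without H2O2 replicate 1 and to 306 without H2O2 replicate 3. All 499 kept their sign in each of these fits.

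H2O2 had 405 genes higher (2.96% of those tested) and 462 lower (3.37%) than untreated cells, and NACET had 191 higher (1.39%) and 185 lower (1.35%). These comparisons use the same 3 untreated samples and share the treated ones with the comparison of the agents, so their values are given only side by side. Without NACET replicate 2, untreated replicate 2, untreated replicate 1, NACET replicate 1 or untreated replicate 3 the 376 genes called with NACET became 31, 35, 58, 77 and 190. Without H2O2 replicate 2, untreated replicate 2 or untreated replicate 1 the 867 called with H2O2 became 290, 499 and 570. With the block the counts were 1026 and 1400.

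**Figure D1:**
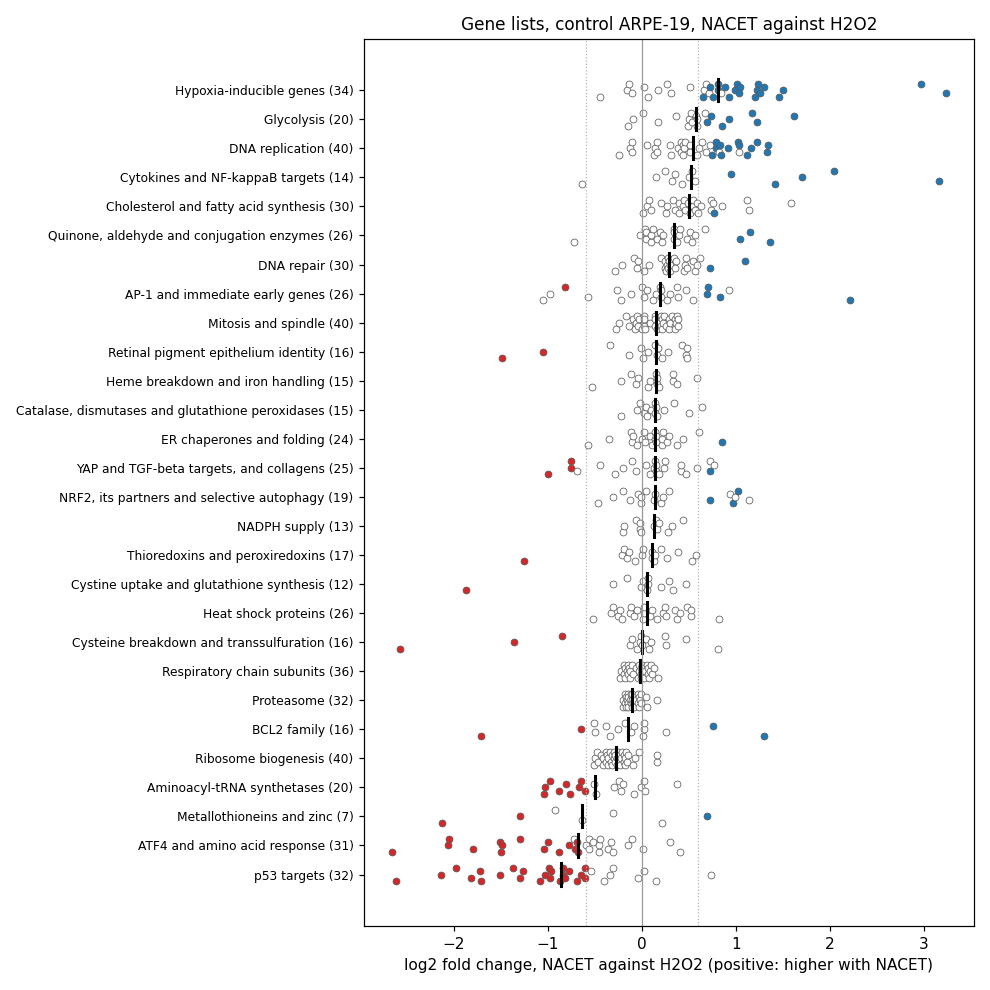
Each point is 1 gene of a list, with its log2 fold change of NACET against H2O2 in control ARPE-19 cells on the x axis, filled where it was a DEG (blue higher with NACET, red lower) and open where it was not, with the number of genes tested in brackets. Black bars are list medians, from 0.81 for the hypoxia-inducible genes at the top to -0.86 for the p53 targets at the bottom, and dotted lines mark 0.6 in either direction.

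The p53 targets held more DEGs than any other of the 28 gene lists. Of 35 listed genes 32 were tested, and 24 were lower with NACET, none higher, with a median of -0.86 over the 32, where 1.43% of all genes tested were lower. In 29 of the 32 the groups did not overlap, against 29.1% of all genes. CDKN1A, which encodes the cyclin-dependent kinase inhibitor p21, stood at 880.2, 872 and 888 CPM with H2O2 and at 155, 132 and 135 CPM with NACET in replicates 1, 2 and 3 (log2 fold change -2.62, SE 0.10, adjusted p = 8.74e-05). Every NACET sample lay below every untreated sample, at 312, 242 and 268 CPM, and every H2O2 sample above them.

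The same order, NACET below untreated below H2O2 with no overlap, was seen in other named targets. BTG2, an antiproliferative gene, stood at 88.7, 131 and 135 CPM with H2O2, 47.0, 55.5 and 57.3 CPM untreated and 23.0, 24.7 and 31.3 CPM with NACET (log2 fold change -2.14, SE 0.19, adjusted p = 0.00215). FDXR, a mitochondrial reductase that passes electrons to ferredoxin, had 134, 164 and 194 CPM with H2O2, 69.2, 65.3 and 86.8 CPM untreated and 34.0, 39.6 and 49.8 CPM with NACET (log2 fold change -1.97, SE 0.18, adjusted p = 0.00253). DDB2, which recognises ultraviolet damage in DNA, had 53.1, 60.9 and 68.8 CPM with H2O2, 31.5, 29.9 and 32.5 CPM untreated and 17.7, 15.1 and 18.4 CPM with NACET (log2 fold change -1.82, SE 0.13, adjusted p = 0.00114). BBC3, which encodes PUMA, a killer of the BCL2 family, followed at 31.8, 36.7 and 45.8, 22.5, 19.9 and 24.5 and 10.7, 10.1 and 13.5 CPM in the same order of groups (log2 fold change -1.71, SE 0.17, adjusted p = 0.00333). Against untreated cells each of these 5 genes was called in both directions, CDKN1A for example at 1.69 with H2O2 (adjusted p = 0.000836) and -0.95 with NACET (adjusted p = 0.0133).

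Over the p53 list, 19 of 32 genes were higher with H2O2 than in untreated cells and none lower (median 0.71), and with NACET 6 of 31 were lower and 2 higher (median -0.32). Of all genes tested 2.96% were higher with H2O2, and with NACET 1.35% were lower and 1.39% higher. The mean level of the list relative to untreated cells, on the log2(CPM + 1) scale, was 0.64, 0.71 and 0.75 in the 3 H2O2 samples and -0.23, -0.28 and -0.30 in the 3 NACET samples. Not every member was called. CCNG1, TP53I3, PMAIP1, GADD45A, PLK2, KITLG, LIF and GDF15 were not DEGs, and SPATA18, TNFRSF10C and TNFRSF10D were too low to test. Over the list 28 of 32 had an unadjusted p under 0.05 between the agents. GDF15, a stress cytokine shared by several programmes and named here after its values were seen, was at 0.884, 1.28 and 1.08 CPM with H2O2 and at 0.0497, 5.50 and 0.0412 CPM with NACET, where replicate 2, the library with the reads of EPCAM and CDH1, stood apart. Leaving out any single library left 17 to 24 members lower, 16 of them in each of the 6 fits. BAX, the pore-forming death protein (log2 fold change -0.65, SE 0.11, adjusted p = 0.0203), was lost in 5 of the 6, with an adjusted p of up to 0.109 without NACET replicate 2.

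Promoter sequence is shown because many members of these lists moved together. The 250 bases before the RefSeq start, from a table of GRCh38.p14 whose shown stretches were matched to GRCh37, were searched on both strands. A match is a description of the letters only. The p53 decamer, an element that p53 binds in pairs, occurred in 3 of the 19 promoters found for the p53 targets called lower (15.8%), in 4 of the 25 found for all those tested (16%) and in 5.53% of 27305 promoters, and TP53INP1, TNFRSF10B, RRM2B, PHLDA3 and CMBL were not matched. The decamers of AEN, a nuclease of apoptosis (chr15:89164517-89164566, plus strand), and of RPS27L, a ribosomal protein paralog (chr15:63449706-63449755, minus strand), are shown in capitals to place them close before the start.
AEN: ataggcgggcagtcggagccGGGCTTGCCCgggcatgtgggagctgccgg
RPS27L: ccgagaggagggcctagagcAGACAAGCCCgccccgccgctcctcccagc
AEN was lower with NACET by a log2 fold change of -0.96 (SE 0.089, adjusted p = 0.00256), and RPS27L by -0.60 (SE 0.11, adjusted p = 0.0197), a call lost in 5 of the 6 fits without a library, among them that without NACET replicate 2 (adjusted p = 0.109).

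The ATF4 and amino acid genes, like the p53 targets, stood higher with H2O2, but here most genes were also above the untreated level with NACET. Of 31 tested, 15 were lower with NACET and none higher, with a median of -0.68, where 1.43% of all genes tested were lower. SLC6A9, a glycine transporter, had the largest fall of the named DEGs, from 16.4, 27.9 and 17.6 CPM with H2O2 to 3.33, 4.34 and 2.1 CPM with NACET, beside 1.47, 1.64 and 0.957 CPM untreated (log2 fold change -2.66, SE 0.30, adjusted p = 0.00481). ASNS, asparagine synthetase, stood at 173, 281 and 252 CPM with H2O2, 40.0, 71.7 and 56.4 CPM with NACET and 20.8, 40.0 and 25.0 CPM untreated (log2 fold change -2.05, SE 0.24, adjusted p = 0.00548). The H2O2 and NACET samples of both genes did not overlap.

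PSAT1, an enzyme of serine synthesis, followed at 212, 346 and 251 CPM with H2O2 and 60.4, 102 and 66.7 CPM with NACET (log2 fold change -1.80, SE 0.24, adjusted p = 0.00786). SESN2, a leucine sensor that restrains mTORC1, stood at 63.5, 73.6 and 79.0 CPM with H2O2 and at 15.2, 20.7 and 14.9 CPM with NACET (log2 fold change -2.07, SE 0.16, adjusted p = 0.00145), and 2 of its NACET samples lay below all 3 untreated ones, at 22.8, 22.1 and 19.3 CPM. ATF4 itself, which is controlled in large part by translation, was not a DEG, at 392, 449 and 468 CPM with H2O2 and 277, 308 and 355 CPM with NACET (log2 fold change -0.46, SE 0.12, adjusted p = 0.0663). Against untreated cells 22 of the 31 list members were higher with H2O2 (median 1.01) and 5 with NACET (median 0.26), none lower in either. Of all genes tested 2.96% were higher with H2O2 and 1.39% with NACET. Without NACET replicate 2 the list held 8 members lower instead of 15 and without H2O2 replicate 2 it held 9, and 8 kept their call in each of the 6 fits.

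CTH and CBS, enzymes on the route from methionine to cysteine, were lower with NACET than with H2O2. CTH, which makes cysteine from cystathionine, stood at 31.5, 55.7 and 43.1 CPM with H2O2, 5.62, 8.89 and 7.16 CPM with NACET and 3.47, 4.19 and 3.33 CPM untreated (log2 fold change -2.57, SE 0.24, adjusted p = 0.00282). CBS, which makes cystathionine, stood at 77.9, 109 and 101 CPM with H2O2 and 29.2, 44.2 and 37.4 CPM with NACET (log2 fold change -1.36, SE 0.18, adjusted p = 0.00718). With GOT1, an aspartate aminotransferase (log2 fold change -0.85, SE 0.14, adjusted p = 0.0159), they were the 3 members called of 16 tested for cysteine breakdown and transsulfuration, all lower with NACET, and the list median was -0.0034. With the replicate block 1 further member was called, and it was higher. The call of GOT1 was lost without H2O2 replicate 2 (adjusted p = 0.0635).

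The aminoacyl-tRNA synthetases, which charge tRNA with amino acids, were lower with NACET in 9 of 20 and higher in none (median -0.51), where 1.43% of all genes were lower. GARS, for glycine, stood at 398, 539 and 462 CPM with H2O2 and 199, 243 and 232 CPM with NACET, beside 117, 156 and 143 CPM untreated (log2 fold change -1.03, SE 0.13, adjusted p = 0.00714). MARS, for methionine, stood at 243, 304 and 258 CPM and 134, 159 and 136 CPM (log2 fold change -0.89, SE 0.12, adjusted p = 0.00761). Against untreated cells 10 of 20 synthetases were higher with H2O2 and 1, GARS, with NACET, beside 2.96% and 1.39% of all genes tested. WARS, for tryptophan (log2 fold change -1.04, SE 0.16, adjusted p = 0.0138), and SARS, for serine (log2 fold change -0.98, SE 0.14, adjusted p = 0.00857), lost their calls without H2O2 replicate 2 (adjusted p = 0.0592 and 0.0523), and without that library 3 of the 20 were called.

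TGATGNAA, a motif of the C/EBP-ATF composite elements that ATF4 binds, was found in the promoters of 2 of 13 matched ATF4-list genes called lower (15.4%) and of 2 of 6 matched synthetases called lower (33.3%), against 3.19% of all promoters. Over all matched members tested it was found in 2 of 25 of the ATF4 list (8%) and in 2 of 13 synthetases (15.4%). NUPR1, PYCR1, GARS, SARS and YARS were not matched. All 4 promoter stretches are shown with the motif in capitals, which lies on the opposite strand in AARS and IARS. They lie at chr7:97501761-97501808 (ASNS, minus strand), chr1:212738538-212738585 (ATF3, plus strand), chr16:70323569-70323616 (AARS, minus strand) and chr9:95055980-95056027 (IARS, minus strand) in GRCh37.
ASNS: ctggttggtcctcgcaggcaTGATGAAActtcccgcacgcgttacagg
ATF3: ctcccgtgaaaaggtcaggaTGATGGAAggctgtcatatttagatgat
AARS: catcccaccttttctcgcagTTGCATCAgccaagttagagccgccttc
IARS: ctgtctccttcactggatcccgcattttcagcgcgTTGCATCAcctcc
ATF3, a stress-induced transcription factor, stood at 38.0, 45.3 and 51.5 CPM with H2O2 and 14.4, 19.2 and 13.2 CPM with NACET (log2 fold change -1.51, SE 0.17, adjusted p = 0.00514). AARS differed by -0.67 and was called in 4 of the 6 fits without a library (adjusted p up to 0.0586, without NACET replicate 2). IARS differed by -0.60 and was called in 0 of the 6 (adjusted p up to 0.0901, without H2O2 replicate 2).

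Ribosome biogenesis had values of the same sign without a call. None of 40 genes that copy, cut and assemble ribosomal RNA was a DEG between the agents by edgeR or DESeq2, and 22 had an unadjusted p under 0.05. In 38 the log2 fold change was negative, and the median was -0.28. Against untreated cells 21 of the 40 were higher with H2O2 and 2 with NACET, beside 2.96% and 1.39% of all genes tested. WDR3 stood at 137, 140.3 and 136 CPM with H2O2, 99.1, 96.4 and 99.5 CPM with NACET and 76.3, 80.8 and 94.1 CPM untreated, with an adjusted p of 0.0138 and a log2 fold change of -0.46 that missed the limit of 0.6. DDX10, an RNA helicase, had -0.51 (adjusted p = 0.0215).

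**Figure D2:**
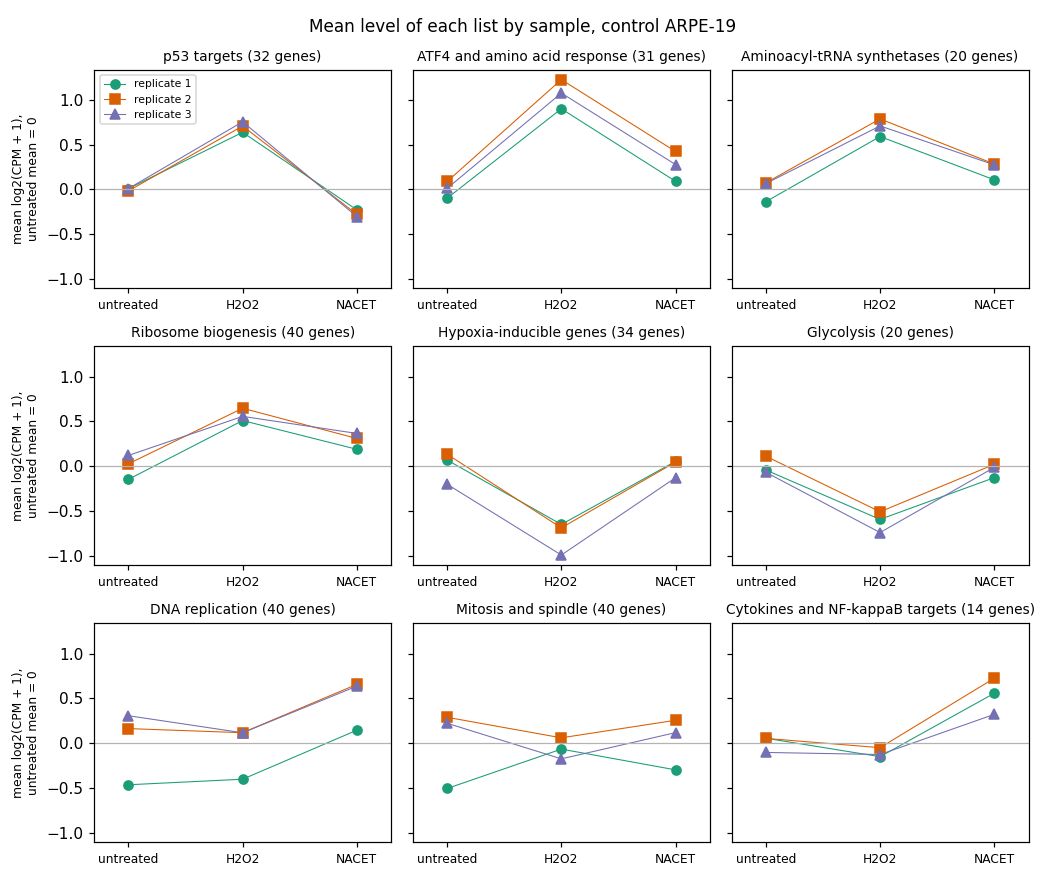
Mean log2(CPM + 1) over the tested genes of 9 lists (y axis, set to 0 at the mean of the untreated samples) in each control sample, with lines joining samples of the same replicate number. The p53, ATF4 and aminoacyl-tRNA synthetase lists peak with H2O2, the hypoxia and glycolysis lists are lowest with H2O2, and the replication list is higher with NACET than with H2O2 in each pair.

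The hypoxia-inducible genes stood higher with NACET, and here it was the H2O2 samples that lay apart from untreated cells. Of 34 tested, 20 were higher with NACET and none lower (median 0.81), where 2.25% of all genes were higher. The groups did not overlap in 26 of the 34, the DEGs among them, against 29.1% of all genes tested. PFKFB4, an enzyme that sets fructose 2,6-bisphosphate and so glycolytic flux, had the largest rise of the named DEGs, with 9.31, 7.38 and 6.08 CPM with H2O2, 66.0, 81.0 and 62.9 CPM with NACET and 62.7, 86.9 and 48.6 CPM untreated (log2 fold change 3.23, SE 0.17, adjusted p = 0.00048). ANGPTL4, a secreted inhibitor of lipoprotein lipase, stood at 1.83, 2.73 and 1.81 CPM with H2O2, 17.1, 21.5 and 11.4 CPM with NACET and 4.22, 7.42 and 2.78 CPM untreated (log2 fold change 2.97, SE 0.28, adjusted p = 0.00282). It was the 1 list member called higher than untreated cells with NACET (log2 fold change 1.80, adjusted p = 0.0409).

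Mitochondrial and oxygen-sensing members were among the DEGs. BNIP3, a receptor for mitophagy, stood at 62.3, 66.9 and 51.8 CPM with H2O2, 138, 154 and 146 CPM with NACET and 154, 189 and 161 CPM untreated (log2 fold change 1.30, SE 0.11, adjusted p = 0.00201). PDK1, which turns off pyruvate dehydrogenase, stood at 55.5, 64.9 and 43.4 CPM and 115, 135 and 126 CPM with the agents and at 138, 170.4 and 142 CPM untreated (log2 fold change 1.22, SE 0.14, adjusted p = 0.00548). EGLN1, the prolyl hydroxylase that marks HIF-1alpha for degradation and itself a target, stood at 83.5, 69.1 and 60.5 CPM with H2O2 and 177, 152 and 152 CPM with NACET (log2 fold change 1.20, SE 0.13, adjusted p = 0.00448) and is named outside the rule for this list.

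HIF1A, the gene of the oxygen-regulated factor itself, was not called. It was at 804, 843 and 662 CPM with H2O2 and 622, 596 and 446 CPM with NACET (log2 fold change -0.45, adjusted p = 0.133), a sign opposite to that of the targets. VEGFA, the vascular growth factor and a textbook target, was at 129.8, 144 and 113 CPM with H2O2 and 139, 139 and 108 CPM with NACET (log2 fold change 0.019, SE 0.13, adjusted p = 0.951), and the groups overlapped. Against untreated cells 17 of 34 were lower with H2O2 and none higher (median -0.77), and with NACET 1 was higher and none lower (median -0.063). Of all genes tested 3.37% were lower with H2O2 and 1.39% higher with NACET. The list held 10 members without NACET replicate 2, 9 without H2O2 replicate 2 and 13 without H2O2 replicate 1, and 8 kept their call in each of the 6 fits. PFKFB3 (log2 fold change 1.5, SE 0.28, adjusted p = 0.0249), ANKRD37 (log2 fold change 1.46, SE 0.26, adjusted p = 0.0211) and BNIP3L (log2 fold change 0.75, SE 0.11, adjusted p = 0.0105) were among those that did not, with adjusted p of up to 0.109 without NACET replicate 2, 0.0899 without H2O2 replicate 2 and 0.0682 without H2O2 replicate 2.

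ACGTG, the core of the hypoxia response element, occurred in the promoters of 11 of the 17 matched members called higher (64.7%) and of 16 of 29 matched members tested (55.2%), against 18.7% of all promoters. BNIP3L, NDRG1 and ZNF395 were not matched. The core is read on the opposite strand as CACGT, and CACGTG, the E-box that other factors bind, holds it on both strands. The stretches of 3 members are shown with the core in capitals, at chr19:8428789-8428833 (ANGPTL4, plus strand), chr4:186317832-186317876 (ANKRD37, plus strand) and chr10:133795536-133795580 (BNIP3, minus strand) in GRCh37.
ANGPTL4: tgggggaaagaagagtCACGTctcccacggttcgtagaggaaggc
ANKRD37: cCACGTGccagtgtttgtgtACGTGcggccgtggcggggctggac
BNIP3: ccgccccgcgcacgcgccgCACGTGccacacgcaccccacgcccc
The stretch of ANKRD37 holds the E-box and a further core, and that of BNIP3 the E-box alone.

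Glycolysis followed the hypoxia list, with which it shares HK2 and PDK1. Of 20 genes 7 were higher with NACET and none lower (median 0.58), where 2.25% of all genes were higher. Against untreated cells 11 were lower with H2O2, beside 3.37% of all genes, and none was called with NACET. ENO2, an enolase, stood at 179, 195 and 159.7 CPM with H2O2, 496, 547 and 569.6 CPM with NACET and 427, 515 and 431 CPM untreated (log2 fold change 1.62, SE 0.11, adjusted p = 0.00102). LDHA, which reduces pyruvate to lactate, stood at 860.1, 1004 and 666 CPM, 1723, 1999 and 1871 CPM and 1592, 2253 and 1884 CPM in the same order of groups (log2 fold change 1.17, SE 0.16, adjusted p = 0.00769). HK1, a hexokinase of the first step, differed as well (log2 fold change 0.93, SE 0.089, adjusted p = 0.00282), whereas HK2 was at 80.3, 97.1 and 74.9 CPM with H2O2 and 86.2, 105 and 87.2 CPM with NACET (adjusted p = 0.478). Without NACET replicate 2 the list held 4 members.

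**Figure D3:**
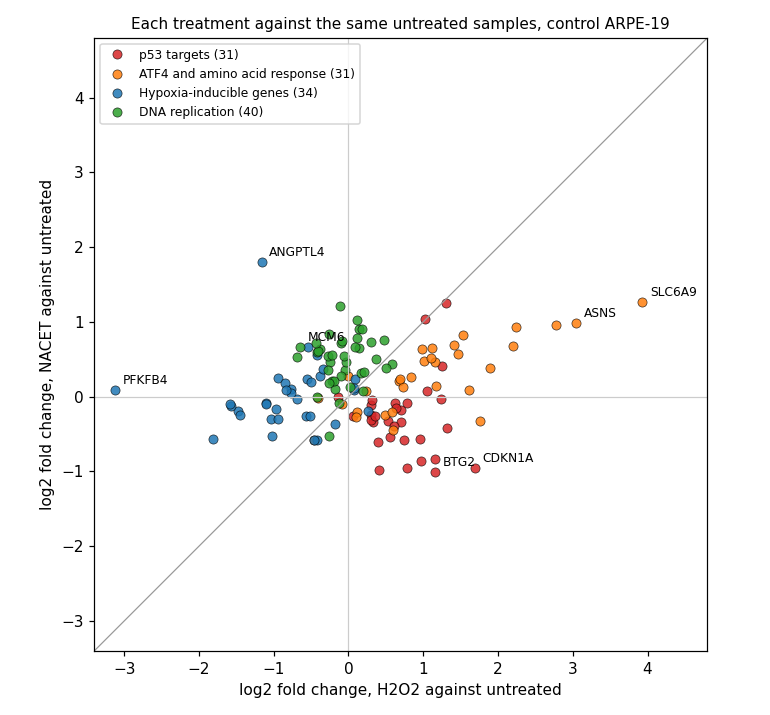
For 4 lists, the log2 fold change of H2O2 against untreated cells (x axis) and of NACET against the same untreated cells (y axis), 1 point per gene, with the line of equal values. The axes share the untreated samples, so nothing is read from their slope. Most hypoxia-inducible genes lie left of 0 and near 0 in height, most p53 targets right of 0 and below it, most ATF4 genes right of 0, and most replication genes above 0.

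DNA replication genes stood higher with NACET in 13 of 40, none lower, with a median of 0.55, where 2.25% of all genes were higher. Against untreated cells the list medians were 0.53 with NACET and -0.10 with H2O2, and 1 gene was called with NACET and none with H2O2. MCM6, a subunit of the helicase that opens replication origins, stood at 50.7, 58.5 and 58.6 CPM with H2O2, 114, 149 and 152 CPM with NACET and 56.5, 100.3 and 107 CPM untreated (log2 fold change 1.33, SE 0.13, adjusted p = 0.00282). ORC1, which marks origins, stood at 6.01, 9.64 and 9.66 CPM with H2O2 and 16.6, 23.5 and 23.3 CPM with NACET (log2 fold change 1.34, SE 0.21, adjusted p = 0.0141).

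The samples numbered 1 sat lowest in this list in each group. Its mean level relative to untreated cells was -0.47, 0.16 and 0.31 in the untreated samples, -0.40, 0.12 and 0.11 with H2O2 and 0.14, 0.66 and 0.64 with NACET, in replicates 1 to 3, so NACET replicate 1 lay below 2 of the 3 untreated samples, while each NACET sample exceeded the H2O2 sample of its number. Of the 13 calls 1, MCM6, was kept in each of the 6 fits that leave out a library, and the count fell to 1 without NACET replicate 2, to 2 without H2O2 replicate 1 or H2O2 replicate 2, to 8 without H2O2 replicate 3 and to 3 with all 18 samples in 1 fit. It was 9 without NACET replicate 3, 16 without NACET replicate 1, 16 with DESeq2 and 19 with the replicate block, with none lower. ORC1, MCM5 and E2F2 had adjusted p of 0.0717, 0.145 and 0.0876 without NACET replicate 2. Of 30 DNA repair genes 2 were higher with NACET and none lower (median 0.29), beside 2.25% of all genes higher. BRCA1, which acts in repair by recombination, was among them (log2 fold change 0.72, SE 0.16, adjusted p = 0.0446) and had an adjusted p of 0.163 without NACET replicate 2.

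None of 40 genes of mitosis and the spindle was a DEG by edgeR, with or without the block, or by DESeq2, and 3 had an unadjusted p under 0.05. Their log2 fold changes ran from -0.28 to 0.38 with a median of 0.15. HMMR, a spindle protein, was at 50.1, 47.6 and 56.1 CPM with H2O2 and 50.3, 71.9 and 75.0 CPM with NACET, and BIRC5, the chromosomal passenger survivin, at 109, 115 and 112 CPM and 107, 157 and 164 CPM (adjusted p = 0.188 and 0.194). The groups overlapped in both.

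A small set of inflammatory and immediate early genes stood higher with NACET. IL8, a chemokine for neutrophils, had 0.412, 0.768 and 0.637 CPM with H2O2, 0.178, 0.675 and 0.319 CPM untreated and 4.03, 9.74 and 2.92 CPM with NACET (log2 fold change 3.17, SE 0.53, adjusted p = 0.0167), and the level was low throughout. CCL2, a chemokine for monocytes, had 8.66, 9.04 and 9.12 CPM with H2O2, 15.9, 17.3 and 10.4 CPM untreated and 24.1, 27.7 and 19.0 CPM with NACET (log2 fold change 1.42, SE 0.16, adjusted p = 0.00448). With BIRC3 (log2 fold change 2.04, SE 0.37, adjusted p = 0.0227) and TNFAIP3 (log2 fold change 1.70, SE 0.28, adjusted p = 0.0148), which regulate NF-kappaB signalling, and NFKBIA, its inhibitor (log2 fold change 0.95, SE 0.21, adjusted p = 0.0416), they were the 5 of 14 tested cytokine and NF-kappaB genes that were called, none lower (median 0.52), and 12 of 26 listed genes were too low to test. Of all genes tested 2.25% were called higher. CCL2 was called in each of the 6 fits. IL8, BIRC3, TNFAIP3 and NFKBIA were not, with adjusted p of up to 0.0783 without H2O2 replicate 2, and 0.1, 0.0733 and 0.142 without NACET replicate 2, and the list fell to 1 member without H2O2 replicate 1 and to 2 without NACET replicate 2, H2O2 replicate 2 or H2O2 replicate 3.

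Of the immediate early genes KLF2, a transcription factor known from endothelium, stood at 1.83, 1.62 and 2.21 CPM with H2O2, 5.07, 4.24 and 5.56 CPM untreated and 7.71, 7.94 and 10.2 CPM with NACET (log2 fold change 2.22, SE 0.20, adjusted p = 0.00215). It moved in opposite directions from untreated cells, by -1.39 with H2O2 (adjusted p = 0.00575) and 0.81 with NACET (adjusted p = 0.0458). JUNB (log2 fold change 0.83, SE 0.18, adjusted p = 0.0373), FOSL1 (log2 fold change 0.70, SE 0.16, adjusted p = 0.0462) and KLF6 (log2 fold change 0.69, SE 0.15, adjusted p = 0.0362) were higher with NACET and IER5 (log2 fold change -0.82, SE 0.14, adjusted p = 0.0182) was lower, of 26 tested, and all 4 calls were lost without NACET replicate 2 (adjusted p = 0.146, 0.173, 0.157 and 0.0928). With the block 5 were higher and 3 lower.

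The 8 classical NRF2 targets stood above untreated cells with both agents, all 8 of them called with NACET and 5 with H2O2, where GCLC, TXN and MGST1 missed the fold limit. NFE2L2 was at 129, 132 and 139 CPM with H2O2 and at 105, 109 and 105 CPM with NACET, without overlap but short of the limits (log2 fold change -0.31, SE 0.078, adjusted p = 0.0572), and KEAP1 was at 86.8, 91.3 and 94.6 CPM and 77.1, 90.1 and 99.9 CPM (log2 fold change -0.0096, adjusted p = 0.968). NQO1, a quinone reductase, stood at 169.5, 335 and 179.8 CPM untreated, 749, 997 and 687 CPM with H2O2 and 1045, 1195 and 1101 CPM with NACET (log2 fold change 0.48, SE 0.15, adjusted p = 0.103), so each NACET sample exceeded each H2O2 sample without a call. SLC7A11, which takes up cystine, stood at 24.6, 36.5 and 30.9 CPM untreated, 147, 253 and 163 CPM with H2O2 and 188, 221 and 172 CPM with NACET (log2 fold change 0.064, SE 0.20, adjusted p = 0.886).

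HMOX1, heme oxygenase, had the only negative value of the 8 targets, with 274, 545 and 385 CPM with H2O2 and 198, 265 and 357 CPM with NACET (log2 fold change -0.53, SE 0.27, adjusted p = 0.289), and its groups overlapped. GCLM (0.47, adjusted p = 0.231), GSR (0.33, 0.17), TXN (0.27, 0.373), GCLC (0.20, 0.254) and MGST1 (0.19, 0.29), genes of glutathione and thioredoxin supply, were also not called. With the replicate block 7 of the 8, all but SLC7A11, had an adjusted p under 0.05, from 6.05e-05 for NQO1 to 0.0219 for GCLC, and missed only the fold limit. The values do not show that the agents acted alike on these genes. The SEs of the log2 fold changes were 0.10 to 0.27 over the 8.

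A few other genes of the NRF2 programme were DEGs. AKR1C3, an aldo-keto reductase, stood at 14.6, 16.4 and 12.6 CPM with H2O2 and 32.0, 29.6 and 33.2 CPM with NACET, beside 12.2, 11.1 and 7.98 CPM untreated (log2 fold change 1.14, SE 0.12, adjusted p = 0.00383), and was called in each of the 6 fits, though its sequence resembles those of AKR1C1 and AKR1C2, which had at most 5 counts. With ABCC3, an exporter of conjugates (log2 fold change 1.04, SE 0.16, adjusted p = 0.0115), and CBR3, a carbonyl reductase (log2 fold change 1.36, SE 0.26, adjusted p = 0.026), it made 3 of 26 tested quinone, aldehyde and conjugation enzymes, none lower (median 0.34, with 24 of 26 above 0). Of all genes tested 2.25% were higher. ABCC3 and CBR3 had adjusted p of 0.0638 and 0.106 without NACET replicate 2.

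Among NRF2, its partners and selective autophagy 3 of 19 were higher with NACET and none lower (median 0.13), and 6 with the replicate block. Of all genes tested 2.25% were higher, and 4.86% with the block. MAFF, a small MAF partner of NRF2, stood at 6.36, 6.87 and 10.1 CPM with H2O2 and 13.4, 15.5 and 18.0 CPM with NACET (log2 fold change 1.02, SE 0.20, adjusted p = 0.0291). TRIM16, which has a near-identical neighbour that can share its reads, stood at 21.2, 28.4 and 16.1 CPM untreated, 58.0, 81.4 and 41.7 CPM with H2O2 and 119, 122 and 109 CPM with NACET (log2 fold change 0.97, SE 0.21, adjusted p = 0.0391), and TFEB, a regulator of lysosomes, at 3.36, 3.24 and 3.48 and 5.47, 5.19 and 5.72 CPM with the agents (log2 fold change 0.72, SE 0.15, adjusted p = 0.0309). All 3 calls were lost on leaving out single libraries, with adjusted p of 0.126 without H2O2 replicate 2, 0.146 without NACET replicate 2 and 0.126 without H2O2 replicate 2.

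The other redox lists held single DEGs or none. CHAC1, a stress-induced enzyme that degrades glutathione and an ATF4 target, was the 1 of 12 genes of cystine uptake and glutathione synthesis, at 13.9, 19.5 and 14.4 CPM with H2O2, 3.28, 7.67 and 2.1 CPM with NACET and 1.16, 1.74 and 0.820 CPM untreated (log2 fold change -1.88, SE 0.41, adjusted p = 0.0391). TXNIP, which binds thioredoxin and restrains glucose uptake, was the 1 of 17 thioredoxin and peroxiredoxin genes, at 53, 44.1 and 84.0 CPM with H2O2 and 21.3, 21.2 and 32.4 CPM with NACET, beside 61.8, 42.5 and 73.0 CPM untreated (log2 fold change -1.25, SE 0.26, adjusted p = 0.0357). Their adjusted p reached 0.146 without H2O2 replicate 2 and 0.149 without NACET replicate 2.

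None of 15 genes of heme and iron, 13 of NADPH supply and 15 of catalase, dismutases and glutathione peroxidases was called by edgeR or DESeq2, with medians of 0.15, 0.13 and 0.14. An unadjusted p under 0.05 was found for 4, 2 and 3 of them, and with the block 1 peroxidase-list gene was called higher. FTL, the ferritin light chain, came closest, at 1860.3, 2036 and 1847 CPM with H2O2 and 2605, 2737 and 3124 CPM with NACET, with an adjusted p of 0.0289 but a log2 fold change of 0.58, under 0.6, and FECH, the last enzyme of heme synthesis, had 0.37 (adjusted p = 0.112). IDH2 (0.43, adjusted p = 0.0428) had the smallest p of the NADPH list, and SEPW1 (0.34, adjusted p = 0.0478) and SOD2 (0.50, adjusted p = 0.122) the smallest of the peroxidase list. FTL passed both limits without NACET replicate 1 and with upper-quartile size factors, and SOD2 without NACET replicate 3.

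Of the metal genes, MT1F, a metallothionein whose sequence is close to its paralogs, stood at 4.48, 4.14 and 2.16 CPM with H2O2 and 1.09, 0.952 and 0.412 CPM with NACET (log2 fold change -2.13, SE 0.41, adjusted p = 0.0259), and SLC30A1, which exports zinc, at 29.3, 34.2 and 19.0 CPM and 13.3, 12.8 and 7.12 CPM (log2 fold change -1.30, SE 0.28, adjusted p = 0.0391). SLC39A10, which imports zinc, was higher with NACET (log2 fold change 0.69, SE 0.14, adjusted p = 0.0331). The sample numbered 3 was lowest with both agents for MT1F and SLC30A1. Of 7 tested genes these 3 were called, and with the block 4 were lower and 1 higher, and their adjusted p reached 0.109, 0.145 and 0.124 without H2O2 replicate 2, H2O2 replicate 2 and NACET replicate 2.

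Of 30 tested genes of cholesterol and fatty acid synthesis 1 was a DEG, and 9 were called with the replicate block, none lower. All 30 log2 fold changes were above 0 (median 0.50), some of them by little, as for ACLY, which makes cytosolic acetyl-CoA (0.05, SE 0.14, named outside the rule). In fits without the block the count varied with the library left out, with 15 called without NACET replicate 3 and 0 without NACET replicate 2 or H2O2 replicate 1. ELOVL6, which lengthens fatty acids, stood at 43.6, 55.5 and 43.7 CPM with H2O2 and 78.3, 84.7 and 76.2 CPM with NACET (log2 fold change 0.76, SE 0.12, adjusted p = 0.0117), with an adjusted p of 0.0667 without NACET replicate 2. SCD, the stearoyl-CoA desaturase, named outside the rule, stood at 204, 257 and 114 CPM with H2O2 and 466, 541 and 233 CPM with NACET in replicates 1 to 3. Each NACET sample exceeded the H2O2 sample of its number while replicate 3 was lowest with both agents (log2 fold change 1.13, adjusted p = 0.106, and 5.54e-09 with the block).

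The remaining lists showed few or no DEGs. None of 26 heat shock, 36 respiratory chain and 32 proteasome genes was called by edgeR. DESeq2 and the replicate block each called 1 heat shock gene higher. The medians were 0.054, -0.025 and -0.11, and 10, 0 and 1 genes had an unadjusted p under 0.05. Those with the smallest p were HSPA9 (-0.52) and BAG3 (0.36), SDHB (-0.23) and ATP5B (-0.23), and PSME4 (-0.18) and PSMA5 (-0.21). MANF, a secreted folding factor of the endoplasmic reticulum, was the 1 of 24 genes of that compartment called, and 2 were with the block. It stood at 39.6, 48.4 and 42.1 CPM with H2O2 and 73.7, 85.8 and 71.8 CPM with NACET (log2 fold change 0.85, SE 0.11, adjusted p = 0.00769). In the BCL2 family 2 of 16 were higher, BNIP3 and BNIP3L, and 2 lower, BBC3 and BAX, all 4 described above.

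Among targets of YAP and TGF-beta and collagens 3 of 25 were lower and 1 higher, and with the block 4 and 3. ACTA2, smooth muscle actin and 1 of the mesenchymal markers above, stood at 120.4, 125 and 129 CPM with H2O2, 94.6, 83.5 and 79.4 CPM untreated and 64.1, 60.9 and 59.8 CPM with NACET (log2 fold change -1.0, SE 0.081, adjusted p = 0.00201), and AJUBA, a LIM protein of the Hippo pathway, at 294, 301 and 265 CPM with H2O2, 287, 263 and 260.0 CPM untreated and 176, 163 and 162 CPM with NACET (log2 fold change -0.76, SE 0.09, adjusted p = 0.00548). ANKRD1 was lower (log2 fold change -0.76, SE 0.15, adjusted p = 0.0314) and CTGF higher (log2 fold change 0.72, SE 0.16, adjusted p = 0.0428) with NACET, with adjusted p of 0.135 without NACET replicate 2 and 0.16 without H2O2 replicate 2. Of 16 tested genes of RPE identity 2 were lower, RDH10, a retinol dehydrogenase, at 322, 271 and 337 CPM with H2O2 and 172, 122 and 146 CPM with NACET (log2 fold change -1.06, SE 0.15, adjusted p = 0.00825), and BEST1, a chloride channel, at 1.35, 1.66 and 1.47 CPM and 0.298, 0.794 and 0.494 CPM (log2 fold change -1.49, SE 0.34, adjusted p = 0.0433). BEST1 lost its call in each of the 6 fits without a library, with an adjusted p of up to 0.158 without H2O2 replicate 2.

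Genes in no list made up 378 of the 499. Of those with a mean of at least 1 CPM, 5 were among the 10 largest rises. They included RIMKLA, which joins glutamate to N-acetylaspartate, at 9.60, 8.57 and 3.82 CPM with H2O2, 38.2, 49.3 and 23.6 CPM untreated and 59.6, 64.7 and 44.8 CPM with NACET (log2 fold change 2.97, SE 0.31, adjusted p = 0.00372), and PPFIA4, a liprin, at 16.8, 13.1 and 9.51 CPM, 84.7, 93.3 and 67.3 CPM and 72.1, 77.6 and 63.9 CPM (log2 fold change 2.47, SE 0.19, adjusted p = 0.00169). Both were called lower than untreated cells with H2O2, and neither was called with NACET. RAB20, a small GTPase, had 3.83, 3.92 and 3.82 CPM with H2O2 and 13.9, 16.8 and 15.0 CPM with NACET (log2 fold change 2.00, SE 0.13, adjusted p = 0.00102), and FAM115C (log2 fold change 2.49, SE 0.28, adjusted p = 0.00472) and NIM1 (log2 fold change 2.34, SE 0.26, adjusted p = 0.00481) rose at lower levels.

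The falls named outside the lists are those among the 10 largest of DEGs with a mean of at least 1 CPM, a limit that leaves out the larger fall of ABCA12 at a mean of 0.803 CPM (log2 fold change -2.98, adjusted p = 0.00548), named after its values were seen. KLHDC7A, a kelch-domain gene, stood at 6.83, 7.89 and 5.83 CPM with H2O2 and 0.995, 1.64 and 1.03 CPM with NACET (log2 fold change -2.48, SE 0.24, adjusted p = 0.00282). FLJ41484, an uncharacterised transcript, stood at 5.33, 4.29 and 3.46 CPM untreated, 4.83, 5.71 and 4.71 CPM with H2O2 and 0.895, 1.53 and 0.741 CPM with NACET (log2 fold change -2.26, SE 0.27, adjusted p = 0.0058), so that here the NACET samples were the ones apart from untreated cells. WDR63 (log2 fold change -2.15, SE 0.27, adjusted p = 0.00629) and GRIN2C (log2 fold change -2.13, SE 0.37, adjusted p = 0.0182) were the other two, and GRIN2C had an adjusted p of 0.0794 without H2O2 replicate 2.

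The same contrast in the NRF2-edited clone shares no sample with that of the control line. There 1121 of 13489 genes tested were DEGs (8.31%), 686 higher with NACET (5.09%) and 435 lower (3.22%). The count was 2092 with the block, and 257 without its H2O2 replicate 2, 261 without NACET replicate 2, 382 without NACET replicate 3 and 693 without H2O2 replicate 3. Over the 13273 genes tested in both lines the log2 fold changes had a Pearson correlation of 0.77, given as a description. Of the 495 control DEGs tested in edited cells 492 had the same sign there and 335 were called in both, which is 67.7% of the control calls and 30.5% of the 1100 edited calls tested in control cells.

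DEGs of the p53, ATF4 and hypoxia lists were found in both lines. In edited cells 27 of 32 p53 targets were lower with NACET (median -1.22), 22 of 32 ATF4 genes were lower (median -0.97), and 11 of 34 hypoxia-inducible genes were higher and 1 lower (median 0.59). Of all genes tested there 3.22% were lower and 5.09% higher. CDKN1A fell from 1549, 1686 and 1603 CPM with H2O2 to 274, 180.3 and 192 CPM with NACET (log2 fold change -2.88, SE 0.19, adjusted p = 0.00185). NQO1 was low with both, at 17.3, 14.6 and 16.7 and 20.1, 19.1 and 22.6 CPM.

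The interaction of agent and line tested the difference between the lines itself, over 12 samples. By edgeR's test without a block none of the genes in the 28 lists was called. Of 13915 genes 1 was called (0.00719%) at an adjusted p under 0.05, DEPDC1, a gene of mitotic cells, and 719 had an unadjusted p under 0.05. DEPDC1 was at 39.4, 36.6 and 33.0 CPM with H2O2 and 34.3, 44.1 and 40.6 CPM with NACET in control cells, and at 12.1, 8.93 and 12.7 CPM and 41.5, 60.1 and 53 CPM in edited cells (interaction -2.08 on the log2 scale, adjusted p = 0.0195). No gene was called without any 1 control library or without NRF2-edited NACET replicate 2 or 3, while 2 were called without NRF2-edited H2O2 replicate 1, 19 without NRF2-edited H2O2 replicate 3 and 20 without NRF2-edited NACET replicate 1. With the replicate number as a block within each line, which the pairing of the samples calls for, 1163 genes were called (8.36%), 389 with a higher difference in control cells and 774 with a lower one, and DESeq2 called 107.

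With that block all 40 genes of mitosis had a lower difference in control than in edited cells, where 38 of 40 were higher with NACET (median 1.61). HMMR stood at 10.7, 7.80 and 15.8 CPM with H2O2 and 52.6, 96.5 and 97.1 CPM with NACET in edited cells, beside the overlapping groups of the control line (adjusted p = 0.0674 for the interaction, and 4.65e-07 with the block). In the opposite direction 17 of 32 ATF4 genes, 11 of 32 p53 targets and 10 of 34 hypoxia-inducible genes had a higher, that is a less negative or more positive, difference in control cells. Of all 13915 genes tested 389 had a higher difference and 774 a lower one. With a replicate block over both lines instead, the counts of the ATF4, p53 and hypoxia lists were 4, 4 and 1, and 38 of 40 mitosis genes had a lower difference. Over all genes that block gave 42 higher and 118 lower. SLC7A11 was at 91.3, 108 and 62.4 CPM with H2O2 and 21.9, 37.6 and 17.2 CPM with NACET in edited cells (log2 fold change -1.74, adjusted p = 0.0156), against 0.064 in control cells (adjusted p = 0.231 for the interaction, and 9.16e-08 with the block). HMOX1 had -1.44 in edited cells and -0.53 in control cells (adjusted p = 1, and 0.000824 with the block). Since the edited line is 1 clone, the edit and the clone cannot be told apart.

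**Figure D4:**
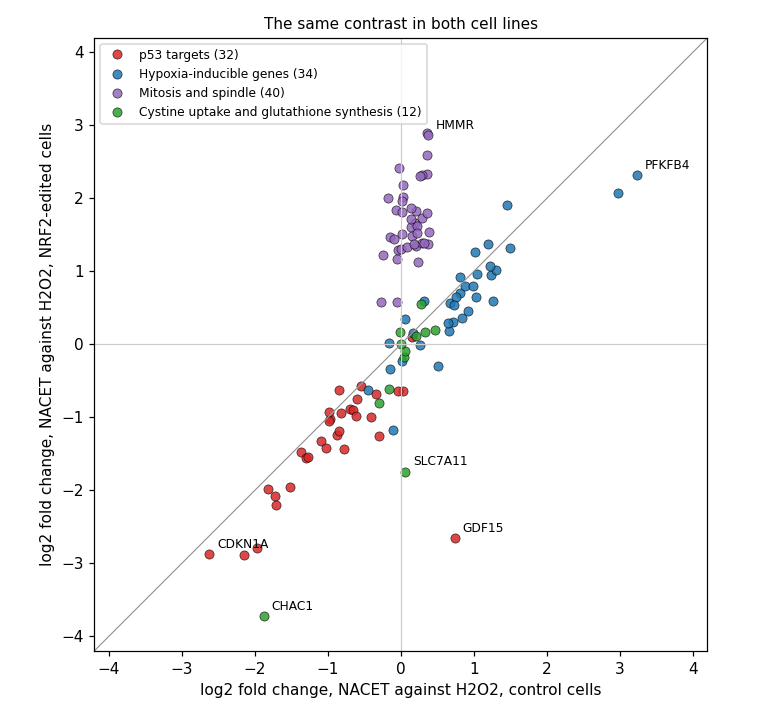
Log2 fold change of NACET against H2O2 in control cells (x axis) and in NRF2-edited cells (y axis) for genes of 4 lists, 1 point per gene, with the line of equal values. Most p53 targets and hypoxia-inducible genes lie below the line, with median interactions of 0.30 and 0.19 on the log2 scale. The mitosis genes stand above the line between -0.28 and 0.38 on the x axis, and SLC7A11, CHAC1 and GDF15 lie below it.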

How the data were processed

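mRNA of ARPE-19 cells was sequenced in 18 samples, of which the 3 NACET and 3 H2O2 samples of the control line are described. The authors deposited whole-number read counts per gene symbol, not normalized. Per the paper's methods reads were counted by gene without regard to strand after mapping to hg19, and the submitters' processing notes name FastQC, TopHat2 2.1.0, Bowtie and HTSeq 0.11.2, while the gene annotation is not given in the sources used here. Without strand, reads of overlapping and antisense genes cannot be told apart. Of 23411 symbols per file 4060 had no read in all 18 libraries. The 5 summary lines were left out, and of the reads of the 6 libraries they held 15.8 to 17.0% as no feature, 0.985 to 1.08% as ambiguous and 8.24 to 10.1% as not uniquely aligned. No pair of replicates agreed within sampling noise, the lowest chi-square being 10.4 for each degree of freedom.

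Groups and replicate numbers come from the labels. Counts were tested with edgeR 4.0.16 in R 4.3.3 (filterByExpr, TMM, quasi-likelihood test, Benjamini-Hochberg over all genes tested), on the 6 samples of each pair of groups, and a call needed an adjusted p under 0.05 and a log2 fold change at or beyond 0.6 in either direction. For the interaction, fitted over 12 samples, the adjusted p alone decided. CPM are TMM-normalized over the 18 samples. SE is the size of the log2 fold change divided by the root of the F statistic. Mean levels of lists use a pseudocount of 1. The script was tested on simulated data.

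Replicate numbers pair the samples: deviations from the group means correlated at 0.53, 0.36 and 0.63 for numbers 1 to 3 in control cells and at 0.72, 0.50 and 0.57 in edited cells (14153 genes).

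The comparison and the 28 gene lists (725 of 729 entries matched, 662 genes tested) were chosen with earlier results of these data known. Named genes are the 10 largest rises and falls among DEGs of at least 1 CPM without overlap, NFE2L2, KEAP1, the 8 RT-qPCR targets, up to 4 DEGs per direction in each list or, with none, the 2 smallest p, and genes called in the interaction. Some genes that this rule takes are not reported here. Others are said to be outside this rule or are given only as list members. Alternatives were DESeq2 1.42.0, RLE and upper-quartile factors, 2 other filters, the replicate block, fits of 9 and 18 samples, other fold limits and leaving out each library. Every fit that leaves out a library was made without the replicate block. How calls of the paired fit depend on single libraries was not tested. For the counts against untreated cells and in edited cells, the block and leaving out libraries were added after the data were seen.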

Additional observations from a re-analysis of the deposited data

Results flagged for a closer look

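One result met a rule for a closer look, that the effect of the same contrast differed between the cell lines by a test of the difference itself. Without a replicate block, the interaction over 12 samples called 1 gene, DEPDC1. Its NACET against H2O2 difference was lower in control than in NRF2-edited cells by a log2 value of -2.08 (adjusted p = 0.0195, edgeR's quasi-likelihood test). The call of DEPDC1 was lost without any 1 of the 6 control libraries and without NRF2-edited NACET replicate 2 or 3, where 0 genes were called. With the replicate block within line its adjusted p was 5.54e-07. The fit without a block leaves out the pairing of the samples. With the block within line 1163 of 13915 genes were called (8.36%), so the single call does not show that the lines differed in 1 gene only.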

How the results depend on the processing

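The count of DEGs between NACET and H2O2 in control cells was 499 and lay within 1.5 times of it with DESeq2 (651), RLE factors (494), upper-quartile factors (540), no filter on low counts (534), the CPM filter (502) and fits of 9 (571) and 18 samples (489). It was 1019 with the replicate block, 799 with no fold limit and 212 with a fold limit of 1, and from 164 to 588 on leaving out 1 library. The share of calls that were higher was 61.1%, and 55.2 to 66.5% in these fits, and 54.3 to 65.8% on leaving out 1 library. The cause of these shifts was not tested.

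The interaction called 1 gene, 107 with DESeq2, 6 without a filter, 160 with a replicate block over both lines, 1163 with a replicate block within line and 2 with all 18 samples in 1 fit, and 0 to 20 on leaving out 1 library (19 without NRF2-edited H2O2 replicate 3, 20 without NRF2-edited NACET replicate 1, 2 without NRF2-edited H2O2 replicate 1, and 0 without any 1 control library and without NRF2-edited NACET replicate 2 or 3).

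With alternatives added after the data were seen, NACET against untreated cells went from 376 to 1026 with the replicate block and to 31 to 337 on leaving out 1 library (31 without NACET replicate 2, 35 without untreated replicate 2, 58 without untreated replicate 1, 77 without NACET replicate 1 and 190 without untreated replicate 3), H2O2 against untreated cells from 867 to 1400 and to 290 to 1047 (290 without H2O2 replicate 2, 499 without untreated replicate 2 and 570 without untreated replicate 1), and the edited line from 1121 to 2092 and to 257 to 1601 (257 without H2O2 replicate 2, 261 without NACET replicate 2, 382 without NACET replicate 3 and 693 without H2O2 replicate 3).

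Of the lists with at least 5 calls in 1 direction, leaving out 1 library gave 17 to 24 p53 targets, 8 to 15 ATF4 genes, 3 to 8 synthetases, 9 to 22 hypoxia-inducible, 4 to 10 glycolysis, 1 to 6 cytokine and 1 to 16 replication genes. The replication list fell from 13 to 3 with all 18 samples in 1 fit, and no other alternative moved these 7 counts by over 1.5 times. CBR3, MAFF, JUNB, FOSL1, ORC1, MCM5, E2F2, BRCA1 and ANKRD1 lost their calls with 18 samples in 1 fit (adjusted p 0.0555 to 0.222). Of 70 called named genes 36 kept the call in every fit and all 70 kept their sign. The block changed no call of these 70, nor of the other named genes. Genes near or under 1 CPM, such as IL8, BEST1 and GDF15, rest on few reads.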

Other observations

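Several DEGs in no list are named here, chosen after their values were seen, and no count over their pathways was made. GYS1, the muscle-type glycogen synthase, stood at 87.3, 88.8 and 75.4 CPM with H2O2 and 162, 181 and 158 CPM with NACET (log2 fold change 1.02, SE 0.10, adjusted p = 0.00283). PGM1, which links glucose 1-phosphate and glucose 6-phosphate (log2 fold change 0.76, SE 0.13, adjusted p = 0.0197), GBE1, the branching enzyme (log2 fold change 0.71, SE 0.13, adjusted p = 0.0212), and STBD1, which binds glycogen (log2 fold change 0.99, SE 0.17, adjusted p = 0.0179), were also called higher, but their adjusted p rose to 0.102, 0.0994 and 0.0837 without NACET replicate 2. HILPDA, a lipid droplet protein of hypoxic cells, stood at 16.0, 15.3 and 11.5 CPM with H2O2 and 38.4, 45.5 and 37.7 CPM with NACET (log2 fold change 1.53, SE 0.15, adjusted p = 0.00282).

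NOTCH1, a Notch receptor, stood at 59.5, 56.7 and 50.3 CPM with H2O2 and 29.2, 28.2 and 24.4 CPM with NACET (log2 fold change -1.0, SE 0.11, adjusted p = 0.00448), and its ligand JAG1 at 35.8, 38.0 and 35.4 CPM and 18.5, 18.7 and 15.3 CPM (log2 fold change -1.04, SE 0.11, adjusted p = 0.00434). JAG2, a further ligand, was higher with NACET (log2 fold change 0.71, SE 0.14, adjusted p = 0.0283, and adjusted p = 0.111 without NACET replicate 2). The receptor of leukotriene B4, LTB4R, stood at 11.4, 13.9 and 16.6 CPM with H2O2 and 4.97, 4.82 and 4.65 CPM with NACET (log2 fold change -1.52, SE 0.17, adjusted p = 0.00448), though its reads can overlap with those of the adjacent LTB4R2. LTB4R2 was called lower as well (log2 fold change -1.03, adjusted p = 0.0309). Of other leukotriene genes ALOX5 was called lower (-1.37, adjusted p = 0.0495) and ALOX5AP higher (1.42, adjusted p = 0.0251). These 3 had adjusted p of 0.12 without NACET replicate 2, 0.173 without H2O2 replicate 2 and 0.111 without NACET replicate 2. TLR4, the endotoxin receptor, was higher with NACET, from 2.18, 1.83 and 1.76 to 5.32, 5.13 and 4.28 CPM (log2 fold change 1.37, SE 0.19, adjusted p = 0.00782, and adjusted p = 0.0501 without H2O2 replicate 2).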
